A study of Mus musculus with 12 samples.

Results

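The cells described are 200 epithelial cells of the mouse small intestine that were chosen by the transcript of Ubd together with those of Ccl20 and Nos2. Each cell with Ubd above 0 was scored by the mean of log1p values per 10000 over the 3 genes, and the 200 highest of 252 such cells were taken, out of 27881 cells in all (0.717%). Other enterocytes, against which they were set, were the 17672 cells outside this choice with both Fabp2 and Apoa1 above 0, a fatty acid binding protein and an apolipoprotein of absorptive cells. The measured values of Ubd, Ccl20 and Nos2 made the choice, so those 3 genes are given as description and stay out of every count.

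The transcriptomes came from droplet-based 3′ sequencing of the 8 libraries of a diet group, and all mice were adults of the Lgr5DTR-GFP strain, which carries a reporter and toxin receptor at the stem cell gene Lgr5. Cells were sorted as negative for CD45 and positive for EpCAM, which selects epithelium and removes blood-derived cells, after the intestine had been divided into 30 pieces of equal length. The labels name no diet, and the 2 total epithelium and 2 progenitor samples were not analysed here. One table pooled the cells in 8 barcode sets that could not be tied to the libraries, so it stands as 1 sample: sets are described by ranges, cells are not replicates, and no difference below carries a test.

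Ubd encodes FAT10, a ubiquitin-like protein that is attached to other proteins and leads them to the proteasome, and it is known as a gene induced by tumour necrosis factor and interferon gamma. Ccl20 encodes the chemokine that attracts cells with the receptor CCR6 and is made by the epithelium over lymphoid follicles and by inflamed epithelium, and Nos2 encodes the inducible nitric oxide synthase. The promoters of such genes are typically read by NF-kB, a dimeric factor held in the cytoplasm by inhibitors of the IκB family, and by factors downstream of interferons. M cells, which sample the gut lumen above the follicles, are surrounded by a follicle-associated epithelium that shares several of these transcripts.

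Promoters of 2 of the genes that made the choice and of 4 genes called higher below are shown first, to show the letters behind the motif shares. They are the RefSeq windows from 250 bases before to 50 bases after the annotated start (GRCm38.p6), written 5′ to 3′ along the gene, and capitals mark matches to the NF-kB consensus or, in Ifit1bl1, to the interferon-stimulated response element, on either strand. Ubd lies at chr17:37193642-37193941 on the plus strand with 1 match at position -15 from the start, Ccl20 at chr1:83116516-83116815 on the plus strand with 1 at -80, and Nfkbia, which encodes IκBα, at chr12:55492598-55492897 on the minus strand with 1 at -29. Nfkb2, which encodes the NF-kB subunit precursor p100, is at chr19:46304487-46304786 on the plus strand, where 3 matches run from -39 and the first 2 overlap. H2-M2, a gene that like Ubd lies in the class I region of the major histocompatibility complex, is at chr17:37483505-37483804 on the minus strand with 2 matches, and Ifit1bl1, a relative of the interferon-induced Ifit1, at chr19:34601919-34602218 on the minus strand with 1 at -104.
Ubd: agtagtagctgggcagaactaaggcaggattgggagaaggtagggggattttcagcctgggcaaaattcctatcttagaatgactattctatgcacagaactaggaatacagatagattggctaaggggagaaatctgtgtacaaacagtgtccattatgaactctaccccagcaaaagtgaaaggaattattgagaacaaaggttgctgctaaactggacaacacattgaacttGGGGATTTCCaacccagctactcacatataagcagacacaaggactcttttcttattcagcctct
Ccl20: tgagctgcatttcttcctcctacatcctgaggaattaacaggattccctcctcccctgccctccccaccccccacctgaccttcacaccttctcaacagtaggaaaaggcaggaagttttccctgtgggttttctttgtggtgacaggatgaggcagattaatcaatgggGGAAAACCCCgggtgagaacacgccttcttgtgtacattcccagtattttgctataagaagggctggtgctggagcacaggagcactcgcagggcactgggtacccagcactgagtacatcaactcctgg
Nfkbia: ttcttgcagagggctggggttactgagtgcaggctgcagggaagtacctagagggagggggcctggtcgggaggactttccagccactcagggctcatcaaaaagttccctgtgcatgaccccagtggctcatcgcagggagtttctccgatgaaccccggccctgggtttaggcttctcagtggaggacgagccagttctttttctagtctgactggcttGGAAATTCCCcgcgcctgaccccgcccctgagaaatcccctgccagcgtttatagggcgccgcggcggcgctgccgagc
Nfkb2: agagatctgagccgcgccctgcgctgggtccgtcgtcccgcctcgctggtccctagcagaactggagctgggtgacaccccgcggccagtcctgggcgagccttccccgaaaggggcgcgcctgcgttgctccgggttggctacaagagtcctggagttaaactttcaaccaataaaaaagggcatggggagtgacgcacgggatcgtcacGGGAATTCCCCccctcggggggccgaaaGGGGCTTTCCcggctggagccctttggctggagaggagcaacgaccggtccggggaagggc
H2-M2: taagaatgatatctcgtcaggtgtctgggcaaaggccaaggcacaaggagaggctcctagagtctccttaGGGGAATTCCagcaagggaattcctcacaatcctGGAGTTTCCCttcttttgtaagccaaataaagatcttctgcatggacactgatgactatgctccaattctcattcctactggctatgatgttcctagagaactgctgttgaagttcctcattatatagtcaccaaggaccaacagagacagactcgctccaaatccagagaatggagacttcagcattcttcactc
Ifit1bl1: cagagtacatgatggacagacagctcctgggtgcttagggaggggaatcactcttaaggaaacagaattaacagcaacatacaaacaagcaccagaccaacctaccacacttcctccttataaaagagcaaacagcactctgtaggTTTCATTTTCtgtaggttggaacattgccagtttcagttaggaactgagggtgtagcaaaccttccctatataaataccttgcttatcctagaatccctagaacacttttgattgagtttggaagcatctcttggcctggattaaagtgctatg

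Such matches are common. The NF-kB consensus stood in a promoter of 5.14% of 27025 genes with an entry, and the interferon-stimulated element in 3.99%. Among genes called higher in the members, by the rule given below, 16 of 120 with an entry (13.3%) held the NF-kB consensus and 12 of 120 (10.0%) held the interferon-stimulated element, against 6.25% and 3.82% of the genes considered. Among the genes called higher against matched cells, the shares were 8 of 30 (26.7%) and 5 of 30 (16.7%). TGANTCA, the AP-1 site, stood in 16.7% of the higher genes and 6.53% of the genes considered. Among genes called lower, AP-1 stood in 10.1%, the NF-kB consensus in 7.41% and the interferon-stimulated element in 3.17%. Against matched cells AP-1 stood in 23.3% of the higher and 15.2% of the lower genes. A match is a run of letters and not a shown binding site, and no transcription factor was measured here. Nos2 is named without a sequence.

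The label of inflammatory enterocytes with Ubd, Ccl20 and Nos2 held for only some of the cells. All 3 genes were above 0 in 25 members, Ubd with exactly 1 of the others in 74, and Ubd alone in 101. Nos2 was above 0 in 88 members and Ccl20 in 36. In 109 members Ubd had a value of 1, and the highest value was 14. The enterocyte part of the label held better, since 186 of 200 members had both Fabp2 and Apoa1. The cells are therefore called members, after the rule.

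The edge of the choice was set by the cell total in the table and not by a difference in the Ubd value. The last member scored 0.366 with a Ubd value of 1 and a cell total of 5000, and the first cell outside scored 0.365 with the same Ubd value and a cell total of 5019. All 52 cells outside had a Ubd value of 1 with Ccl20 and Nos2 at 0. The highest score was 2.53, in a cell with values of 1 for Ubd, 8 for Ccl20 and 30 for Nos2.

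As class sums, with ppm as parts per 1000000 of the values summed over all genes, Ubd stood at 398.5 ppm in members and 0.427 ppm in other enterocytes, Nos2 at 445 and 38.2 ppm, and Ccl20 at 132 and 4.51 ppm. Ubd in members had a lowest set of 328 ppm, a median of 401 ppm and a highest of 707 ppm over the 6 barcode sets with at least 10 members. Nos2 spread more, from 111 through 173 to 862 ppm in members, against 7.10, 24.3 and 106 ppm in other enterocytes of the same sets. These levels follow from the choice.

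Over all cells, the shares of cells with 1 of the 3 transcripts were higher among cells with another, as a description of the genes that made the choice. Ubd was above 0 in 5.28% of 1667 cells with Nos2 (exact binomial 95% interval 4.26 to 6.46) and in 0.626% of 26214 cells without it (0.534 to 0.729). Among 437 cells with Ccl20 it was above 0 in 8.24% (5.84 to 11.2), and among cells without Ccl20 in 0.787%. Nos2 was above 0 in 39.8% of cells with Ccl20 (35.2 to 44.6) and in 5.44% of cells without (5.17 to 5.72). Within single sets the share of Ubd was higher with Nos2 in 7 of 8 sets and with Ccl20 in 6 of 8, and that of Nos2 was higher with Ccl20 in 7 of 8. The median share of Ubd over sets was 4.88% with Nos2 and 0.553% without, and 6.27% with Ccl20 and 0.608% without, while that of Nos2 was 17.2% with Ccl20 and 3.53% without. Most cells with Nos2 or Ccl20 had no Ubd, and 126 other enterocytes had both Nos2 and Ccl20 with Ubd at 0. Intervals cover counting error over pooled cells only.

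Ubd was detected mainly in absorptive cells. It was above 0 in 1.28% of cells with Fabp2 and Apoa1 (1.12 to 1.45), in 0.239% of cells lacking either (0.153 to 0.356), and in 0.386% of 2592 cells with Lgr5 and no Fabp2 (0.185 to 0.708). Cells lacking either enterocyte gene had a median cell total of 5613 and 2771 detected genes, and cells with both had 5089 and 1816. Free RNA was not measured, so whether the low share in cells with Lgr5 is background or expression was not tested, and single Ubd values at that share are not read as expression. The corresponding shares for Nos2 were 7.72%, 2.88% and 2.78%, and for Ccl20 1.65%, 1.43% and 2.12%, so Ccl20 was not more frequent in absorptive cells than in cells with Lgr5.

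Members were unevenly spread over the barcode sets, with 51, 12, 17, 6, 4, 42, 30 and 38 cells in sets 1 to 8. They made up 0.142% to 1.61% of the cells of a set, with a median of 0.519%, and the 4 sets with most members held 161 of the 200. The makeup differed too. In set 1, 38 of 51 members had Ubd alone, while in set 8 only 7 of 38 did, and sets 6 and 8 held 20 of the 25 members with all 3 genes between them. The share of all cells with Nos2 was 16.0% in set 6 and 13.5% in set 8, against 6.89% in set 1 and 1.71% to 3.82% in the other sets. Of 80 pairs of cells that shared a barcode between sets, 1 member was concerned. Whether a set differs from another by animal, diet or handling cannot be told apart.

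**Figure D1:**
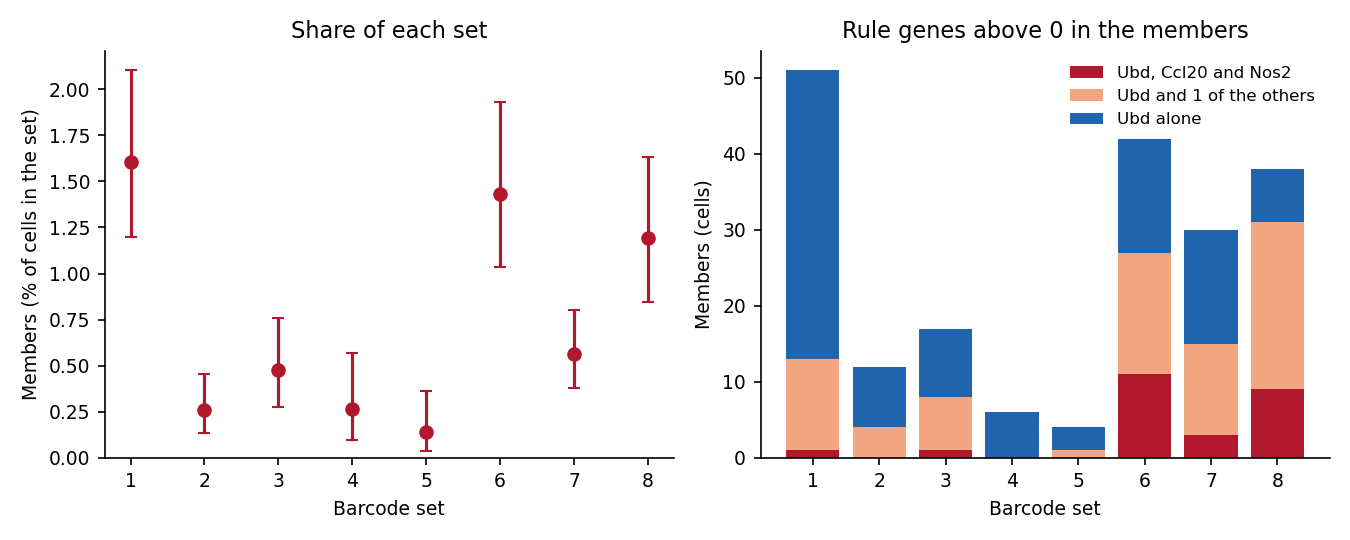
Members in each of the 8 barcode sets. Left, members as a percentage of the cells of the set with the exact binomial 95% interval. Right, numbers of members with Ubd, Ccl20 and Nos2 above 0 (red), with Ubd and exactly 1 of the others (orange) and with Ubd alone (blue). Set 1 holds the highest share at 1.61%, mostly of cells with Ubd alone, and set 5 the lowest at 0.142%.

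The depth of the cells is unknown, and their detected genes, quality and other markers are given here. The median member had 2029.5 detected genes and 8.0% mitochondrial transcripts, and the median other enterocyte 1815 and 8.43%. The 52 Ubd-positive cells outside the members had medians of 2725 and 10.0%, and the members with Ubd alone 1741 and 7.63%. The summed level of 12 enterocyte markers was 18042 ppm in members and 17423 ppm in other enterocytes, with set ranges of 6003 to 22437 ppm and 6715 to 26380 ppm, while the medians per cell were 16551 and 10478 ppm. Blood cell markers were nearly absent. Of the 10 macrophage and dendritic cell markers present, 8 were at 0 in members, among them Csf1r, Cd68, Itgax and Adgre1, with a sum of 11.9 ppm in members (0 to 21.5 over sets) and 12.6 ppm in other enterocytes (9.37 to 23.3). Of 10 T and NK cell markers 8 were at 0, among them Ptprc, which encodes CD45, and Cd3e, with a sum of 4.57 ppm in members (0 to 12.1) and 21.5 ppm in other enterocytes (1.63 to 91.7).

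Genes were then compared between the members and all other enterocytes. A gene was called where the mean of its 2 class levels was at least 10 ppm, so that a gene could pass through the class where it was high, its log2 difference (pseudocount 1 ppm) was at least 1 in size, and its direction was the same in all 6 sets with at least 10 members. Of 8543 genes considered, 150 were called higher in members (1.76%) and 251 lower (2.94%), with a median log2 difference of -0.03. Called or not, 4069 of the 8543 stood higher in members, as did 7129 of the 20087 genes of the table beside the 3 choosing genes. These shares are the background for the list counts below. Without set 7 the lower genes numbered 484. A set with members at 0 counted as lower wherever its other enterocytes were above 0, so low genes could easily meet the direction rule for lower. With no minimum level 1071 genes were called lower and 153 higher. In the lists below, genes under the minimum level were not considered and could not be called. Members had the higher median of summed enterocyte markers per cell and scored as more distal, so a second comparison weighted them to the members by barcode set, by 5 bins of the summed enterocyte markers and by 3 parts of the regional score described below. Against these 11511 matched cells 38 genes were higher (0.46%) and 45 lower (0.545%), of which 34 and 25 were also called against all other enterocytes. Called or not, 8317 of the 20087 genes stood higher in members than in matched cells. Values marked as matched below come from this comparison.

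MHC class II genes, which present antigen to helper T cells and can be induced in enterocytes by interferon gamma, had the highest median of the lists. All 7 stood higher in members with a median log2 difference of 2.24, against -0.03 over all genes considered, and 3 of 7 were called. The median was 1.74 against matched cells, with the same 3 called. Cd74, the invariant chain that guides class II molecules, had a lowest set of 309 ppm, a median of 563 ppm and a highest of 752 ppm in members, against 86.9, 115 and 139 ppm in other enterocytes. The 2 ranges did not overlap, also not with the matched cells, whose highest set was 179.5 ppm. Its log2 difference was 2.34, and 1.81 against matched cells. Cd74 was above 0 in 118 of 200 members and in 21.4% of other enterocytes.

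H2-Ab1, the class II beta chain, ranged from 52.5 through 174 to 276 ppm in members and from 27.4 through 38.1 to 54.6 ppm in other enterocytes. One set of members lay within the range of the other enterocytes, and the log2 difference was 2.32 (1.67 matched). H2-DMb1, which helps to load class II peptides, had 18.3 ppm in members and 3.09 ppm in other enterocytes (2.24, and 1.74 matched). The alpha chain H2-Aa stood at 84.1 and 12.3 ppm and H2-Eb1 at 72.2 and 16.6 ppm, but each was higher in only 5 of 6 sets in both comparisons and neither was called (2.01 and 1.77 matched). Ciita, the master regulator of class II genes, had 11.9 ppm in members and 5.21 ppm in other enterocytes and was not called.

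Class I presentation moved less. Of 16 class I and processing genes 15 stood higher, with a median of 0.80 (0.54 matched), and 3 were called. Tap1, a subunit of the peptide transporter of the endoplasmic reticulum, had 46.6 ppm in members and 17.9 ppm in other enterocytes and was also called against matched cells, at a log2 difference of 1.16. Tapbp, the tapasin that joins the transporter to class I molecules, had 196 and 85.4 ppm, and the classical class I gene H2-D1 had 478 and 234 ppm. Neither was called against matched cells (0.85 and 0.53). H2-D1 shares sequence with other class I genes, so its level is uncertain. The immunoproteasome subunit Psmb8 stood at 122.5 and 64.5 ppm without a call.

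Among genes higher in members outside the lists, the largest difference belonged to H2-M2, a class I gene with restricted expression. Members had 25.6 ppm and other enterocytes 0.132 ppm, a log2 difference of 4.55 (4.61 matched), higher in 6 of 6 sets. It met the minimum level only through the members, so it could only be called higher, and its rank depends on that. The lowest, median and highest sets of members were 4.13, 21.4 and 65.7 ppm, and the highest set of other enterocytes was 0.463 ppm. The result rests on few cells: H2-M2 was above 0 in 33 cells of the table, and 14 of them were members. In GENCODE for GRCm38, H2-M2 spans 37480851 to 37483552 of chromosome 17 on the minus strand and Ubd spans 37193892 to 37196095 on the plus strand of the same chromosome, so the 2 genes do not overlap.

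Interferon response genes followed as a group. Of the 29 present, 27 stood higher, and the median was 1.37 (0.94 matched). Of the 16 considered 5 were called, and 2 were called against matched cells. With a pseudocount of 10 ppm the median was 0.56. Ifit1, which binds foreign RNA, had 72.2 ppm in members and 17.0 ppm in other enterocytes, at 2.02 (1.38 matched).

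Ifit1bl1 had the second largest difference among genes higher in members outside the lists, at 109.7 ppm in members and 20.3 ppm in other enterocytes (2.38, and 1.78 matched), and part of its level could belong to its near relatives. Zbp1, a sensor of Z-form nucleic acid that can start necroptosis, had 32.9 and 8.67 ppm. The interferon-induced GTPase gene Ifi47 had 28.3 and 9.04 ppm. Each was called at 1.81 and 1.55, but was higher in only 5 of 6 sets against matched cells. Irf7 was called at 1.16 and stood at 0.30 against matched cells, and Irf1, which is upstream of class I and II genes, stood at 124 and 71.9 ppm without a call. The range of the list's median over sets, 0.30 to 1.40, lay wholly above 0.

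NF-kB components and targets gave a median of 0.89 (0.54 matched), with 19 of 21 higher. Of the 14 considered 5 were called, and 2 were called against matched cells. With a pseudocount of 10 ppm the median was 0.48. Nfkb2 had 46.6 ppm in members and 9.88 ppm in other enterocytes (2.13, and 1.67 matched). Nfkbia ranged from 103 through 146 to 348 ppm in members and from 32.2 through 58.7 to 105 ppm in other enterocytes. The ranges overlapped at their ends only, and within each set the members were higher, also against matched cells (1.83, and 1.14 matched). Birc3, an inhibitor of apoptosis and NF-kB target, had 97.8 and 43.0 ppm, and Nfkbib, the IκBβ gene, 52.1 and 22.9 ppm. Both lost the call against matched cells, at 0.69 and 0.70.

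The list's median was below 0 in set 1 (-0.09) and reached 1.04 in set 2 and 1.18 in set 7. Tnfaip3, which encodes the feedback inhibitor A20, stood at 53.9 and 15.6 ppm but was higher in 4 of 6 sets. Tumour necrosis factor itself was scarce: Tnf was above 0 in 11 members, with 11.9 ppm in members and 1.30 ppm in other enterocytes, in 4 of 6 sets. Tnfaip2 and Icam1 were above 0 in 6 and 4 members.

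Of the 9 other chemokines present, 5 were considered and 1 was called. Cxcl16, a membrane-bound chemokine for T cells with the receptor CXCR6, had a lowest set of 28.9 ppm, a median of 60.3 ppm and a highest of 138 ppm in members, against 4.53, 14.5 and 25.6 ppm in other enterocytes. The ranges did not overlap, and the log2 difference was 2.07 (1.26 matched). Cxcl10, the interferon-induced ligand of CXCR3, stood at 20.1 and 1.18 ppm, a log2 difference of 3.28 that failed the direction in 1 of 6 sets. It was above 0 in 16 members. The list's median was 0.20 (0.44 matched). Of 19 cytokines and cytokine receptors 11 were considered and none was called, and the median of the 19 was 0.30 (0.05 matched).

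**Figure D2:**
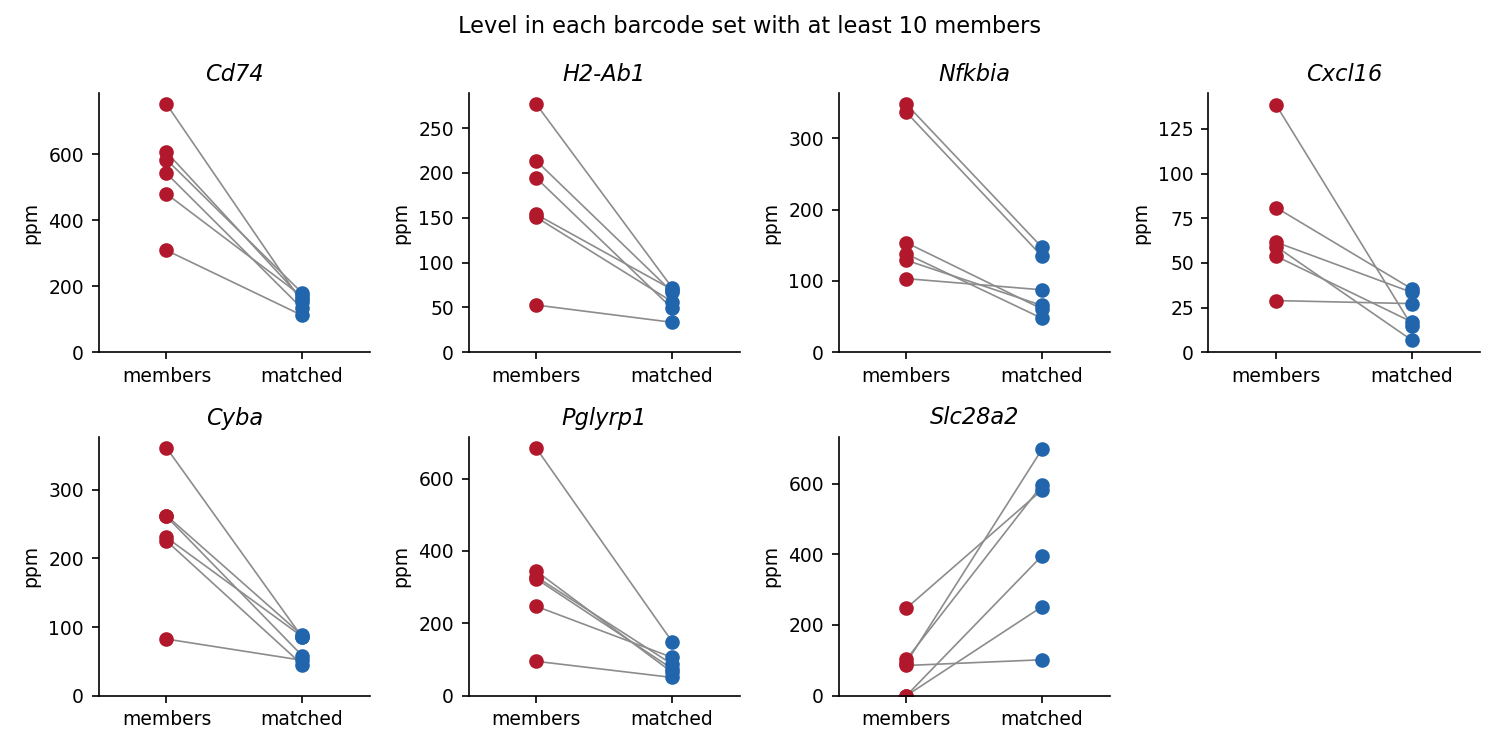
Level in ppm of 7 genes in members (left, red) and matched other enterocytes (right, blue). Each line joins the 2 values of 1 of the 6 barcode sets with at least 10 members. Cd74 members lie between 309 and 752 ppm, all above the matched cells, and Slc28a2 runs the other way in every set.

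Genes of the FAT10 and ISG15 pathways showed a mixed picture. Among 10 genes of ubiquitin-like modifier machinery beside Ubd, Herc6, a ligase for ISG15 in mice, had 41.1 ppm in members and 12.3 ppm in other enterocytes (1.66, and 1.15 matched), and Uba7, the activating enzyme for ISG15, had 48.5 and 17.7 ppm (1.40, lost at 0.85 against matched cells). Uba6, the activating enzyme that FAT10 itself uses, stood at 33.8 and 35.7 ppm, a log2 difference of -0.08. Nub1, which carries FAT10 conjugates to the proteasome, stood at 53.9 and 35.0 ppm without a call.

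Nitric oxide and oxidant genes split in direction. Of 20 beside Nos2, 12 were considered, 4 were called higher and 2 lower, and the median was 0.04 (0.15 matched). Cyba, the p22phox subunit shared by membrane oxidases, had 219 ppm in members and 58.7 ppm in other enterocytes (1.88, and 1.61 matched) and was the only gene of the list still called against matched cells. Duoxa2 and Duox2, the maturation factor and the enzyme of the epithelial hydrogen peroxide source, had 85.0 and 123 ppm in members and 19.8 and 47.4 ppm in other enterocytes. Against matched cells Duoxa2 stood at 1.02 in 5 of 6 sets and Duox2 at 0.53.

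Genes that supply the nitric oxide synthase were not among those called higher. Slc7a1, an arginine transporter, was called lower at 13.7 ppm in members and 47.2 ppm in other enterocytes (-1.71, and -0.94 without a call against matched cells). Ass1, which regenerates arginine from citrulline, was above 0 in 1 member. Gch1, the first enzyme for the cofactor tetrahydrobiopterin, stood at 36.6 and 30.7 ppm. Nqo1, a quinone reductase, was called lower at 4.57 and 15.7 ppm, and lost the call against matched cells.

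Of 12 antimicrobial and acute phase genes 8 were considered and 2 were called. The median log2 difference was 0.50 and lay between -0.39 and 0.38 in single sets, and a pseudocount of 10 ppm gave 0.095. Pglyrp1, which binds bacterial peptidoglycan, had 302 ppm in members and 86.9 ppm in other enterocytes and kept its size against matched cells (1.78, and 1.77 matched). Reg3g, a lectin that kills Gram-positive bacteria, had 3979 and 1483 ppm, a log2 difference of 1.42 that was 0.78 against matched cells. Its near copy Reg3b stood at 7144 and 3076 ppm, in 5 of 6 sets, and reads of the 2 genes may be split between them.

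Saa1, an acute phase apolipoprotein, stood at 289 ppm in members and 27.2 ppm in other enterocytes, yet was higher in only 3 of 6 sets. Its lowest, median and highest sets were 0, 21.8 and 1011 ppm in members, against 1.06, 7.63 and 108 ppm in other enterocytes, so single sets carried the pooled value. Saa2 and Lcn2 were above 0 in 3 and 2 members. Of 22 cell death genes 19 were considered and 3 were called. Casp4, the caspase that senses cytosolic lipopolysaccharide in mice, had 134 and 39.7 ppm (1.73, and 1.28 matched), the death receptor gene Fas had 49.4 and 18.4 ppm (1.38, and 1.06 matched), and the pore-forming Gsdmd had 218.5 and 95 ppm (1.19, lost at 0.56).

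M cell and follicle-associated epithelium markers were higher in some sets and not in others. Of the 14 present, 13 stood higher, and the median was 1.07 (1.09 matched). Of the 8 considered, 2 were called in both comparisons, Cxcl16 and Pglyrp1 above. The summed level of the 14 was 1144 ppm in members (668 to 2036 over sets) and 557 ppm in other enterocytes (345 to 777), and none was at 0. The median of the list was 1.94 in set 6 and 1.99 in set 7, 0.77 in set 3, but -0.52 in set 1 and -0.76 in set 8. Anxa5 stood at 31.1 ppm in members and 5.73 ppm in other enterocytes, the M cell transcription factor gene Spib at 11.9 and 1.12 ppm, and Clu at 26.5 and 6.25 ppm, above 0 in 16, 8 and 10 members and none of them called. Gp2 and Sox8 were not analysed here.

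**Figure D3:**
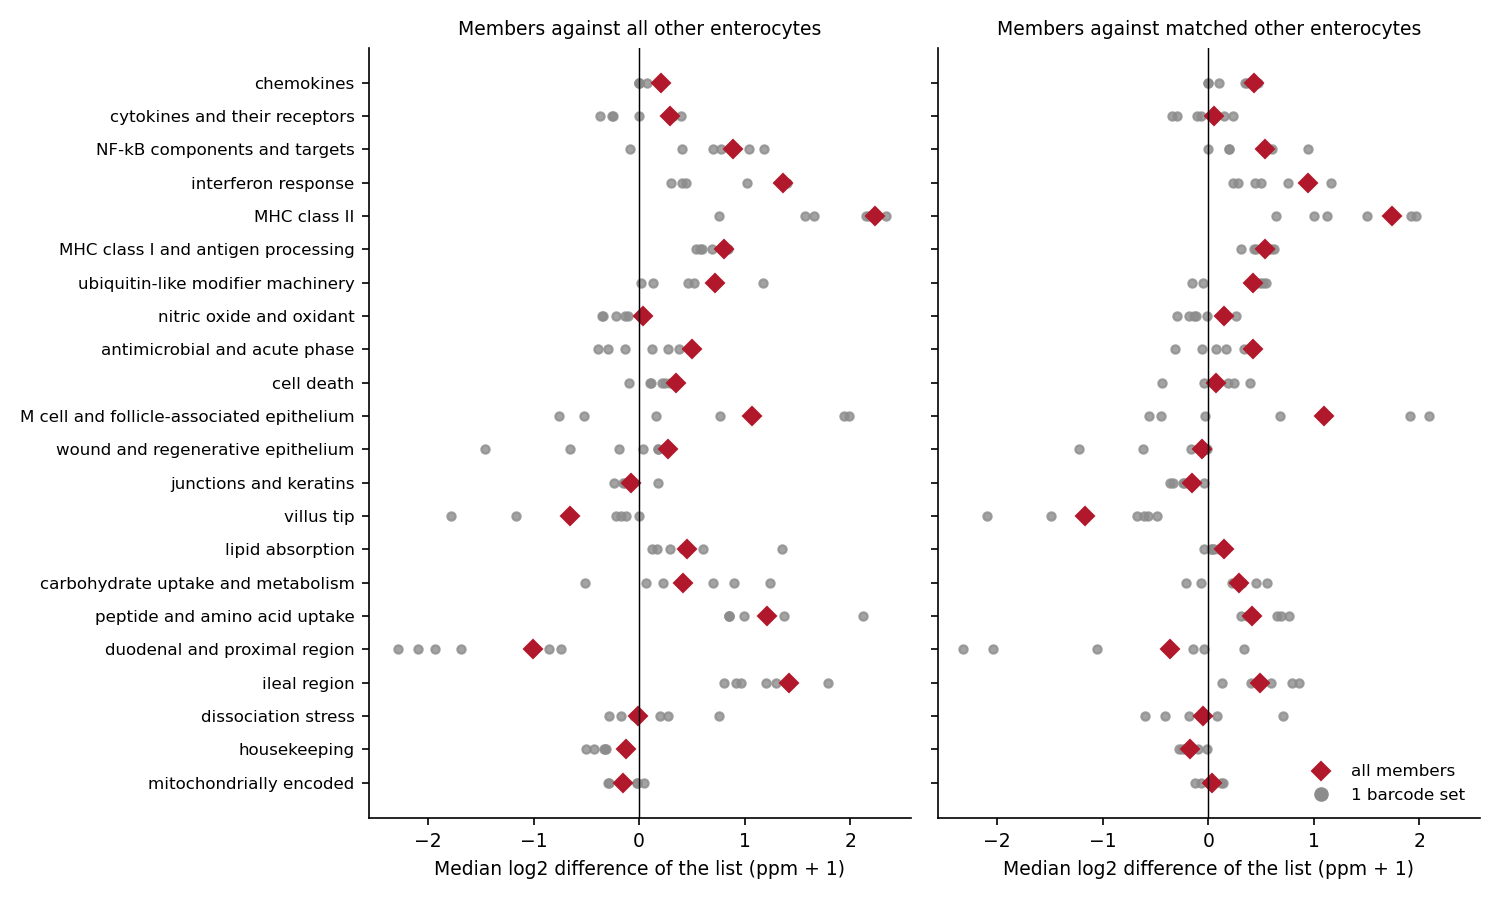
Median log2 difference (ppm plus 1) of each gene list, members minus all other enterocytes (left) and minus matched other enterocytes (right). Red diamonds are the values over all members and grey points the 6 barcode sets with at least 10 members. MHC class II stands highest at 2.24 and 1.74, the ileal and peptide uptake lists shrink to 0.49 and 0.41 against matched cells, and the M cell list spreads from -0.57 to 2.09 over sets.

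Position along the intestine was estimated from a score, 8 distal minus 8 proximal scoring genes in log1p units. The median score was 0.702 in members and 0.181 in other enterocytes. It was 0.371 in members with Ubd alone and 0.0681 in the 52 Ubd-positive cells left out by their cell total. When the other enterocytes of each set were divided into 3 equal parts, 51.5% of members fell in the distal part (44.3 to 58.6), 32.5% in the middle and 16.0% in the proximal part (11.2 to 21.8). The members' score was higher in each of the 8 sets, by 0.0974 to 0.626. The distal genes carried this result. Their median was 1.36 in members and 0.564 in other enterocytes, while the proximal genes were also higher in members, at 0.585 and 0.317, so that the proximal genes alone would turn the direction of the score (-0.268). Against other enterocytes matched on set and summed enterocyte markers, the difference of the score was 0.35.

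**Figure D4:**
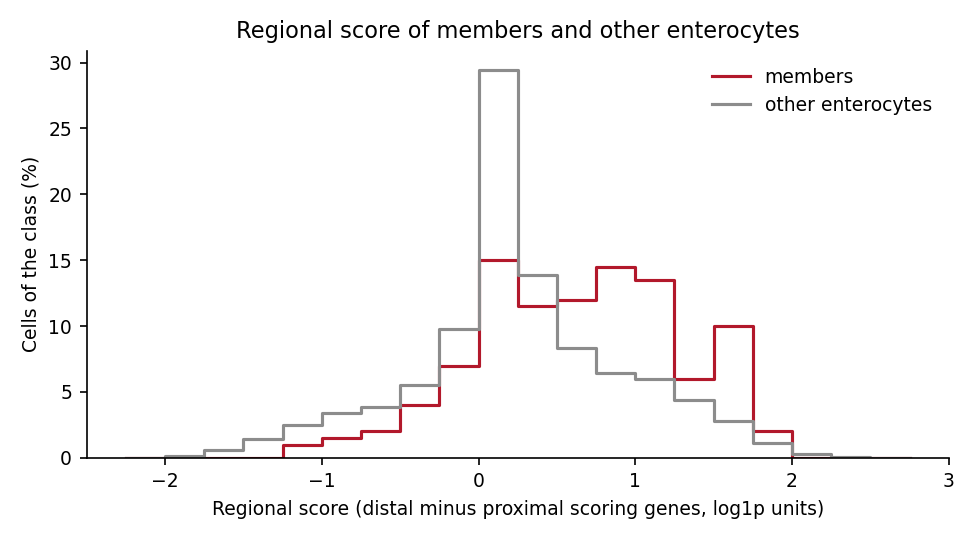
Distribution of the regional score (distal minus proximal scoring genes, log1p units) as the percentage of cells of each class, for 200 members (red) and 17672 other enterocytes (grey). The members' median is 0.702 and that of other enterocytes 0.181, and both classes span proximal and distal scores.

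Regional genes outside the score pointed to the same end. Of 9 ileal genes all stood higher and 6 were called, with a median of 1.42. Fabp6, the ileal bile acid binding protein, had 8614 ppm in members and 2681 ppm in other enterocytes (1.68, and 0.84 matched), the bile acid induced hormone gene Fgf15 had 120 and 28.7 ppm (2.03), with 59.4 ppm in matched cells, and the magnesium channel gene Trpm6 had 108 and 28.2 ppm (1.90, and 1.21 matched). The bile acid uptake carrier gene Slc10a2 stood at 163 and 67.6 ppm in 5 of 6 sets. Against matched cells the median of the list was 0.49 and none was called.

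Of 10 duodenal and proximal genes 8 were considered and 3 were called lower, with a median of -1.01, or -0.51 with a pseudocount of 10 ppm. Against matched cells the median was -0.36, from -2.33 to 0.33 over sets, and 3 of the 10 stood higher. Reg1, a secreted lectin gene, had 123 ppm in members and 1243 ppm in other enterocytes (-3.32, and -2.48 matched), and the iron exporter gene Slc40a1 had 3.66 and 35.8 ppm (-2.98, and -2.47 matched). Slc40a1 was at 0 in members in 4 of the 6 sets, with a highest set of 8.25 ppm, so the size of its difference is uncertain. S100g, a calcium binding protein of duodenal absorption, had 40.2 and 247 ppm (-2.59), but was lower in only 3 of 6 sets against matched cells. Gkn1 and Gkn2, genes of the stomach surface, were called lower, and Gkn1 was at 0 in all members against 45.5 ppm in other enterocytes. The lowest, median and highest sets of other enterocytes had 0.215, 13.1 and 91.2 ppm of Gkn1, so single sets carried the pooled value. In the lowest set a level of 0 in members says little.

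Uptake genes were higher and stem cell genes lower in members than in other enterocytes as a whole. Of 12 peptide and amino acid uptake genes 8 were called higher, with a median of 1.21, among them the brush border peptidases Anpep at 1839 ppm in members and 728 ppm in other enterocytes (1.34, and 0.61 matched) and Ace at 362 and 137.5 ppm (1.39, and 0.92 matched). None was called against matched cells, where the median was 0.41. Lipid absorption (15 genes, 1 called, median 0.45) and carbohydrate uptake (11 genes, 1 called, median 0.42, or 0.28 without set 2 and 0.26 without set 3) also had no call against matched cells. Stem cell genes were lower, with 3 of 7 called and none against matched cells: Lgr5 had 64.0 ppm in members and 253 ppm in other enterocytes (-1.96, and -0.85 matched), and Olfm4 had 504 and 1368 ppm (-1.44, and -0.71 matched).

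Villus tip genes were called lower only against matched cells. Against all other enterocytes none of 6 was called, 2 stood higher, and the median was -0.65 (-1.78 to -0.0032 over sets), or -0.20 without set 6 and -0.31 without set 8. All 6 stood lower than in matched cells, with a median of -1.17 (-2.10 to -0.48 over sets), and 3 were called lower. These were the purine handling genes of the upper villus. Slc28a2, a nucleoside transporter, had 111 ppm in members and 492 ppm in matched cells (-2.14, and -1.27 against all other enterocytes), the adenosine deaminase gene Ada had 151 and 478 ppm (-1.66, and -0.78), and Nt5e, which encodes the ectonucleotidase CD73, had 52.1 and 147 ppm (-1.48, and -0.59). All were lower than in matched cells in 6 of 6 sets, and lower than in all other enterocytes in 5, 4 and 4 sets. Cldn4, a tight junction gene, had 15.5 and 52.7 ppm (-1.70, and -0.79) and was the only 1 of 15 junction and keratin genes called against matched cells.

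The members were not uniform, and the 99 with Ccl20 or Nos2 differed from the 101 with Ubd alone. Each subclass was compared with other enterocytes matched to it, with no test. Class II genes had medians of 1.70 in members with Ccl20 or Nos2 and 1.70 in members with Ubd alone, and interferon genes of 0.79 and 0.74. The lists of NF-kB genes, M cell markers and antimicrobial genes stood apart, with medians of 0.61, 1.5 and 0.74 in members with Ccl20 or Nos2 and 0.05, 0.44 and -0.26 in members with Ubd alone. Markers of secretory cells moved with the split: Paneth markers had medians of -1.16 in members with Ccl20 or Nos2 and -0.13 in members with Ubd alone, and goblet markers -0.81 and 0.37. Their part in these differences was not tested. Nfkbia stood at 309 ppm in members with Ccl20 or Nos2 and 114 ppm in members with Ubd alone, Cyba at 314 and 106 ppm, and Reg3g at 5910 and 1673 ppm. These ppm levels were pooled over sets without matching, so they mix set with subclass. In set 1, 38 of 51 members had Ubd alone, against 7 of 38 in set 8. Other enterocytes also differed by set, with Reg3g from 469 to 3378 ppm.

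Villus tip genes stood further apart between the subclasses than any other list of programme genes. Their median was -2.30 in members with Ccl20 or Nos2 and -0.56 in members with Ubd alone. Nt5e had 6.72 and 106 ppm, Ada 36.9 and 287 ppm, and Slc28a2 21.8 and 217 ppm in these 2 subclasses. These levels too were pooled over sets without matching. Members with Ccl20 or Nos2 were also the more distal by score, with 61.6% (51.3 to 71.2) in the distal part, against 41.6% (31.9 to 51.8), and had a median of 2335 detected genes against 1741. For the list medians each subclass was matched within its barcode sets, and the part of detected genes was not tested.

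A related class without Ubd was the 126 other enterocytes with both Nos2 and Ccl20. Their own matched cells were 5297 other enterocytes with Ubd, Ccl20 and Nos2 all at 0, while the matched cells of the members were not limited in this way. The sizes are therefore not on the same reference. The sets differed too: of all 174 cells with Nos2 and Ccl20, with or without Ubd, 79 were in set 6 and 68 in set 8. The members' own matched interferon median was 0.24 in set 6 and 1.17 in set 8. The part of set in the values below was not tested. Against their own matched cells the 126 cells had medians of 2.09 for class II genes, 0.91 for NF-kB genes, 0.94 for antimicrobial genes and -2.73 for villus tip genes. Their interferon median was -0.02, where members with Ccl20 or Nos2 stood at 0.79 and members with Ubd alone at 0.74. Ifit1 had 15.9 ppm in these cells (-0.43 against their matched cells), though Cxcl10 stood at 31.8 ppm (4.24) and Zbp1 at 21.2 ppm (1.36). M cell markers had a median of -0.23 in them, with Spib at 0. These cells were chosen by 2 of the 3 genes that chose the members, so their own Nos2 and Ccl20 levels are no result.

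**Figure D5:**
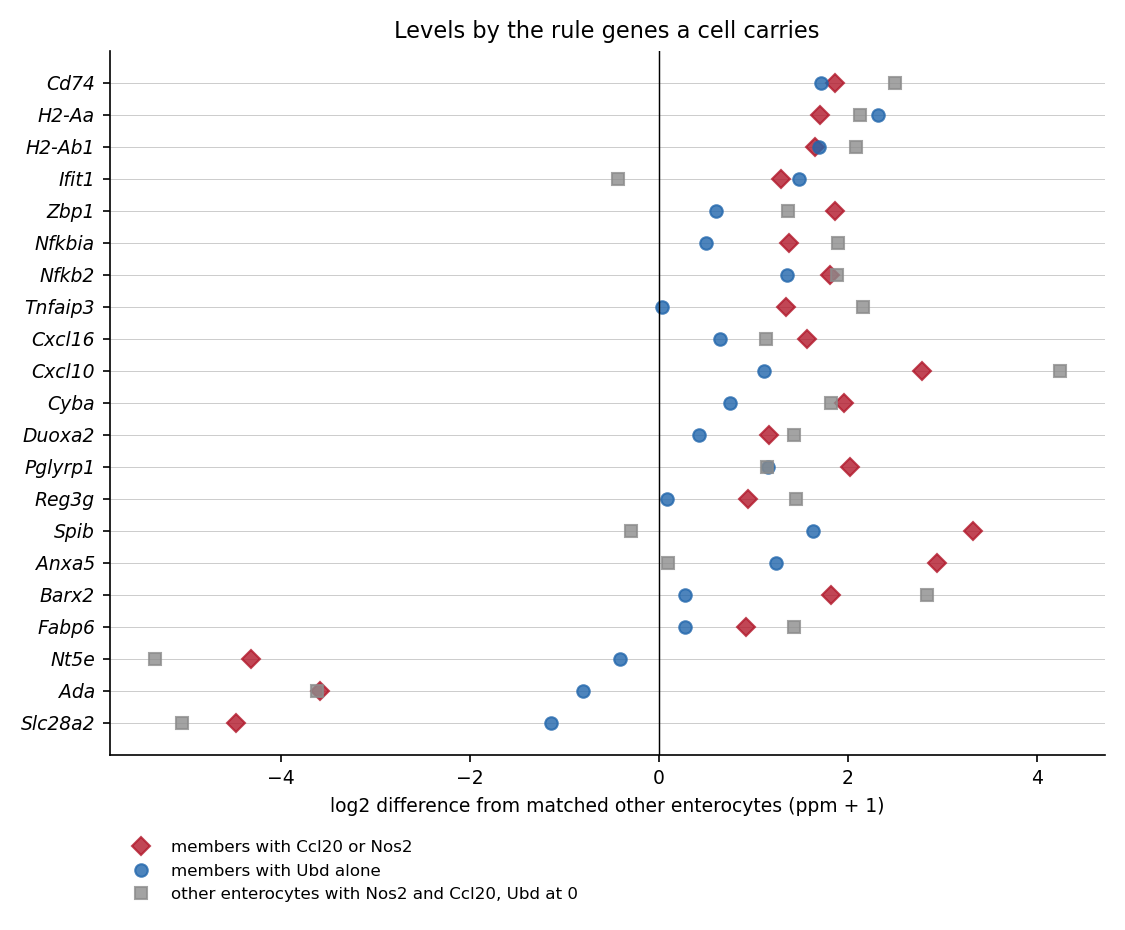
Log2 difference (ppm plus 1) from matched other enterocytes for 21 genes in members with Ccl20 or Nos2 (red diamonds), members with Ubd alone (blue circles) and other enterocytes with Nos2 and Ccl20 but no Ubd (grey squares). Matched cells of the grey squares had Ubd, Ccl20 and Nos2 all at 0, and those of the members were not limited in this way. Cd74 and H2-Ab1 stand between 1.66 and 2.50 in all classes, Ifit1 is at -0.43 in the cells without Ubd, and Nt5e, Ada and Slc28a2 are lowest where Ccl20 or Nos2 is present.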

How the data were processed

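Sorted epithelial cells of 8 diet samples were measured by droplet-based 3′ sequencing. The submitters' processing notes name Cell Ranger and mm10, and say no more of later steps. The deposited table of 20090 genes holds whole numbers that were treated as a score, not as counts, since in 25.3% of cells the value 2 outnumbered 1 and cell totals spanned only 2764 to 9739. Depth is therefore unknown, so no count model, thinning or test was used, and the barcode sets (median detected genes 1693.5 to 2576) were described as values of 1 pooled sample. No cell was removed and doublets were not called, so members could include doublets.

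Values were summed per class and scaled to ppm, and log2 differences took a pseudocount of 1 ppm, which understates differences of low genes. Lists were summarised over all genes of the list in the table, without Ubd, Ccl20 and Nos2. Scripts ran in Python 3.11.15 with pandas 2.3.3, numpy 2.4.6, matplotlib 3.10.9 and scipy 1.17.1. Genes were named by a rule: the 3 choosing genes, up to 4 called genes per list with the largest difference, the 10 largest in each direction outside the lists, and a fixed set of inflammatory and absorptive genes; H2-DMb1, H2-Eb1, Ciita, Irf7, Psmb8, Ada, Slc28a2, Cldn4, Anxa5 and Clu are further list members named after their values were seen. The members and all lists were chosen with earlier results of these data known. Alternatives changed the pseudocount, the minimum level, the number of members, the comparison cells, the scaling and the barcode sets; matching on markers and region together was added after seeing the data. Names were located with GENCODE for GRCm38 and promoters taken from RefSeq. Some items examined are not reported here.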

Additional observations from a re-analysis of the deposited data

Results flagged for a closer look

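The median log2 difference of the junction and keratin genes, members minus other enterocytes, was 0.18 in barcode set 2 and -0.24, -0.13, -0.11, -0.09 and -0.15 in sets 1, 3, 6, 7 and 8. Set 2 stood far from the other sets, and it held 12 members. It was the only 1 of 25 groups of set values examined in this way that stood out, and chance flags about 1 in 20.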

How the results depend on the processing

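The numbers of genes called were the least stable results. Genes called higher, 150 as reported, were 294 with the 100 highest-scoring cells, 94 with other enterocytes weighted by set, 80 matched on detected genes, 68 matched on region, 51 matched on enterocyte markers and 38 matched on markers and region together. Genes called lower, 251 as reported, were 115 with a pseudocount of 10 ppm, 1071 with no minimum level, 63 with a minimum of 50 ppm, 516 with 100 cells, 448 with members that had Fabp2 and Apoa1, 102 matched on region, 61 on markers, 45 on both and 104 with all Ubd-positive cells. Leaving out each set gave 149 to 196 higher and 237 to 484 lower, the last without set 7. Of 396 list medians under the alternatives 363 stayed within the spread of the sets and 33 moved by more. With a pseudocount of 10 ppm the interferon list was at 0.56, class II at 1.63 and antimicrobial genes at 0.095; with 100 cells chemokines were at 0.43, villus tip at -1.67, duodenal at -1.79 and housekeeping at -0.30, and housekeeping was at -0.29 with Fabp2 and Apoa1 required. Class I was at 0.64 and ileal at 1.06 when weighted by set, and at 0.63 and 0.99 matched on detected genes. Matched on region, chemokines were at 0.35, class I 0.67, cell death 0.12, peptide uptake 0.66 and ileal 0.64; matched on markers, 0.32, 0.52, 0.12, 0.67 and 0.83, with housekeeping -0.30 and mitochondrially encoded 0.016; matched on both, 0.44, 0.54, 0.071, 0.41 and 0.49, with mitochondrially encoded 0.035. Leaving out each set, nitric oxide and oxidant genes ran from -0.11 to 0.10, a change of sign around a median near 0, and housekeeping genes from -0.34 to -0.047. The set with most members held 27.1% to 32.3% of the members left.

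The regional score difference, 0.52 as reported, was 0.31 with all Ubd-positive cells, 0.79 with the distal scoring genes alone and reversed to -0.268 with the proximal ones alone. Taking 400 cells was not possible because only 252 cells had Ubd above 0. Of 1584 values of 88 named genes under the alternatives 76 moved by more than the spread of the sets and none reversed. No paired analysis was possible because the cells could not be tied to samples. Unknown depth and few members per set limit every value of a low gene.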
